A study of Mus musculus with 4 samples.

Results

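The genes described here are type I interferon-stimulated genes, measured in mouse colon adenocarcinoma cells with and without Mgat5. They were taken from a list of 41 gene symbols, each read from the probe set that carries that symbol in the platform's annotation, and the probe set with the highest mean was used where a gene had several. The platform annotation named 38 of the 41, each by 1 probe set, among 19505 genes named in all. Trex1, Ifi44 and Ddx60 were not named there and were not analysed here. In clone 2, a knockout clone, 33 of the 38 genes lay at least 1 log2 unit (2-fold) above both control arrays. The median of the 38 was 2.31 log2 units above the mean of the controls. With the 5 of those 33 whose controls were under background taken at a lower bound, it was 2.19. In clone 1, the other knockout clone, 0 of the 38 lay that 1 log2 unit above both controls, and the median gene was 0.11 log2 units above their mean.

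The study compared MC38 cells, a murine colon adenocarcinoma line, on Clariom S mouse arrays, which give 1 summarised signal per probe set from many short oligonucleotide probes. Mgat5, the gene targeted with CRISPR-Cas9, encodes an enzyme of the Golgi that builds a branch on the sugar chains (N-glycans) of glycoproteins. There were 4 arrays, each of 1 sample: untransfected cells (WT), cells carrying the empty vector (MOCK), and the knockout lines KO T5 clone 1 and KO T5 clone 2. WT and MOCK formed the control group and the clones the knockout group, with 2 arrays in each. Each knockout line is a single clone, and no clone with intact Mgat5 was labelled as such, so what belongs to a clone and what belongs to the loss of Mgat5 cannot be told apart. A cell label naming the knockout stands on all 4 samples, the controls included, and the titles were followed instead. No label states that the samples were separate cultures, so p-values measure only the spread between these arrays, which may be technical. They name no interferon or other treatment for any sample.

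Type I interferons are secreted proteins that bind a receptor made of Ifnar1 and Ifnar2. The kinases Jak1 and Tyk2 then phosphorylate transcription factors of the STAT family, among them Stat2, which works with Irf9 in the complex ISGF3, and ISGF3 binds a DNA motif called the interferon-stimulated response element in the promoters of many genes. Many of the proteins made from these genes block viruses, by degrading or sequestering viral RNA, stopping translation or altering membranes. Unphosphorylated forms of the same factors are known to keep a part of this program active at a low level, and tumour lines differ widely in how much of it they express.

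Promoter sequences are given first because interferon-stimulated genes are known for a common promoter motif. An exact match to its core was found near the start of some of these genes and not of others. The sequences come from RefSeq, build GRCm38.p6, in a window from 250 bases before to 50 bases after a gene's start, and at least 1 window was found for 31 of the 38 genes. The core of the response element was searched as GAAANNGAAA, which reads TTTCNNTTTC on the other strand. The following lines hold the 250 bases before the start, 5′ to 3′ on the strand of the gene, for Rsad2 and Ifit1, which carry the core, and for Oasl1, which also stood far above the controls in clone 2 and whose window holds no match. Capitals mark the fixed letters of the core.
Rsad2, chr12:26456453-26456702, minus strand: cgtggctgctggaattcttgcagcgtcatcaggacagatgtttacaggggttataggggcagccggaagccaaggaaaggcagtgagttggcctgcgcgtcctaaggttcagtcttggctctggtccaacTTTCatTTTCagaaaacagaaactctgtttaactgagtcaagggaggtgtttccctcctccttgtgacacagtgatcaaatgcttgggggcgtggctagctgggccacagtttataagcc
Ifit1, chr19:34640639-34640888, plus strand: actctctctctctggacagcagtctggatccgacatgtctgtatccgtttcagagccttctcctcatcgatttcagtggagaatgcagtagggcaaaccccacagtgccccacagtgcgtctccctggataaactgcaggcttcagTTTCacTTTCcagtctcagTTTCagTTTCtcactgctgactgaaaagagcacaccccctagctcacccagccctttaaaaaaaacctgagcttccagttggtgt
Oasl1, chr5:114922990-114923239, plus strand: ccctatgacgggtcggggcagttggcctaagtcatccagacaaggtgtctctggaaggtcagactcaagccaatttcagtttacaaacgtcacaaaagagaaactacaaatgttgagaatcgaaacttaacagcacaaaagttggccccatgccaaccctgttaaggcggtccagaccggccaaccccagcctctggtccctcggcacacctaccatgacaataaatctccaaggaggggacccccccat
Further matches are given as 30 bases around 1 core, for genes that stood far above the controls in clone 2. Isg15 was added after its values were seen. Here capitals mark only that 1 match, so overlapping matches in the same stretch stay in small letters, as in Oas1a and Isg15.
Trim30a, chr7:104465210-104465239, minus strand: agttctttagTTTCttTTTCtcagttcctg
Ifit3, chr19:34583363-34583392, plus strand: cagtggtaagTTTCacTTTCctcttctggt
Ifit3, chr19:34583397-34583426, plus strand: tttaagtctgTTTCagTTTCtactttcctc
Oas1a, chr5:120907526-120907555, minus strand: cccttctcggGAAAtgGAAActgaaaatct
Stat2, chr10:128270266-128270295, plus strand: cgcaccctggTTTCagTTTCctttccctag
Isg15, chr4:156200871-156200900, minus strand: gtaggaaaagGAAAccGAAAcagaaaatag
Both 30-base stretches of Ifit3 were identical in letters to those of Ifit3b, 2 of 2 sites.

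The core was found in 13 of the 31 genes with a window (41.9%) and in 3.99% of the 27025 genes in the same table. By window, 14 of 40 held it (35%), against 3.44% of all 32851. It occurred 23 times in these genes, 17 times upstream of the start at 14 to 222 bases and 6 times downstream, and 9 genes had 2 or more matches. Some matches overlap, as in Isg15, where the second GAAA of 1 match is the first of the next. A second motif, the core of the gamma-activated site, was searched as TTCNNNGAA, which reads the same on both strands. It was found in 9 of the 31 genes (29%) and in 9.55% of all genes, and its GAA can be shared with a response element. The 13 genes with the response element core differed from the controls in clone 2 by a median of 2.79 log2 units (range 0.78 to 4.98). The 18 without it had a median of 1.90 (range -0.34 to 6.33, the top being the measured difference of Oasl1, whose controls were under background), so the ranges overlap widely. A match is a description of letters and not a measured binding site. Only exact matches in these windows were searched, so a gene without a match is not shown to lack the element.

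The arrays differed in their overall distribution, and the main counts and medians are therefore given on the deposited log2 scale and after quantile normalization, which sets all 4 arrays to 1 distribution. Differences of single genes, marker sums and motif counts are as deposited unless stated. The 75th percentile of all probe sets was 8.87 log2 units in WT and between 9.26 and 9.60 on the other arrays. As deposited, the median named gene stood above the controls by 0.13 log2 units (clone 1) and 0.25 (clone 2), and quantile normalization moved both medians to -0.02. Negative-control features had a 75th percentile of 6.29 to 6.56, which is used here as the level of background. Where both controls, or clone 1, were under it, the difference of clone 2 is given as at least its height above that level. Mgat5 itself read 8.19 in MOCK and 8.27 in WT, with 7.46 in clone 1 and 7.57 in clone 2, so both clones lay below both controls. That difference did not pass limma's test (adjusted p = 0.631), and the labels do not say which part of the gene was edited, so the array gives only a limited check of the knockout. Markers of colon epithelium were not above background on any array in 11 of 11 genes, Epcam, Krt18, Krt19 and Cdh1 among them, so the labelled tissue of origin does not show in its defining epithelial genes.

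**Figure D1:**
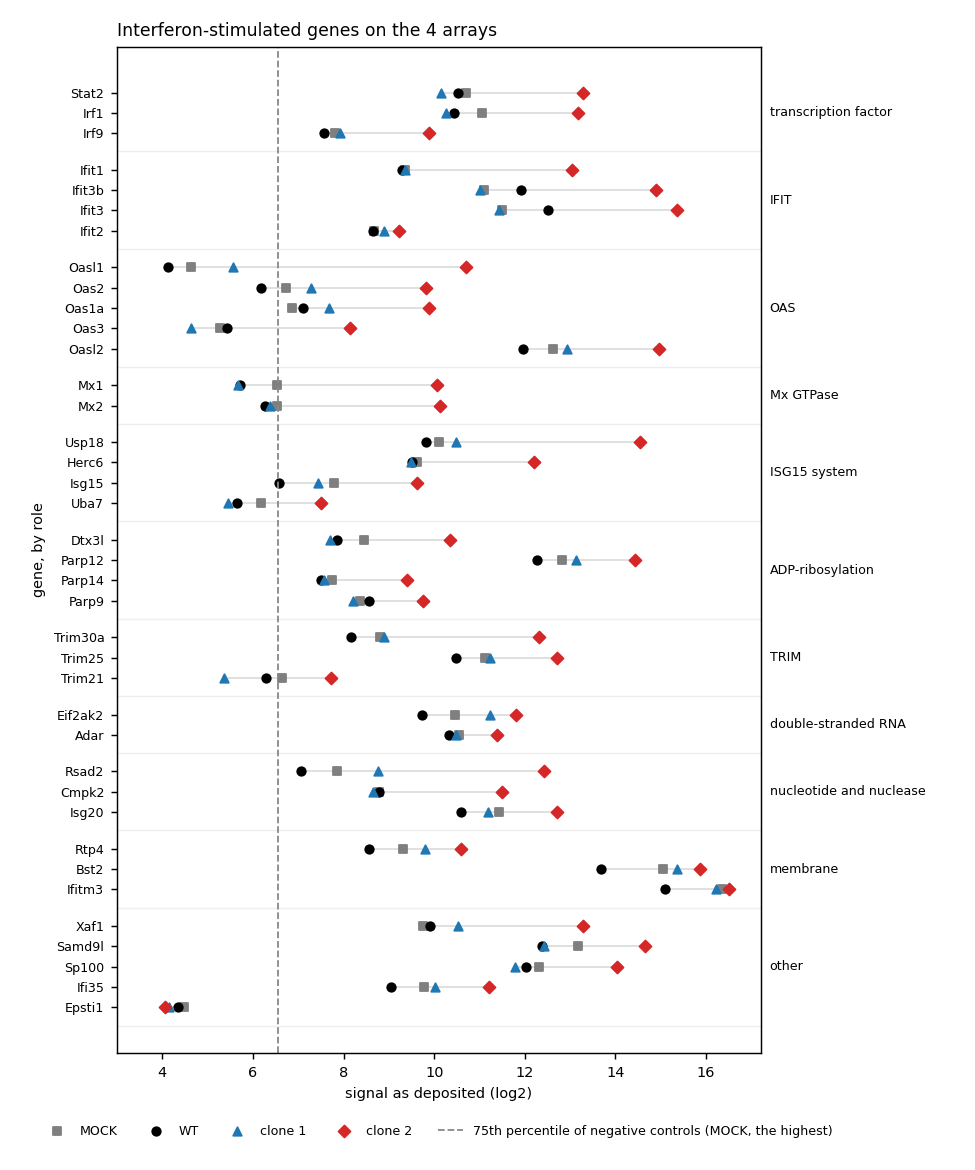
Deposited log2 signal of each of the 38 genes on the 4 arrays, grouped by role; each point is 1 array and the dashed line is the 75th percentile of the negative controls on MOCK, the highest of the 4. Clone 2 stands to the right of the other arrays for 37 of the 38 genes, and Epsti1 is the exception.

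On the deposited scale the median signal of the 38 genes was 9.33 log2 units in MOCK and 8.92 in WT, with 9.42 in clone 1 and 11.66 in clone 2. On the quantile-normalized scale it was 9.34, 9.33, 9.31 and 11.35 in the same order. Clone 2 thus stood apart on both scales, while clone 1 lay with the controls. Clone 2 exceeded both controls for 37 of 38 genes as deposited and for 36 after quantile normalization, the exceptions being Epsti1 on both scales and Ifit2 on the second. Clone 1 was above both controls for 17 genes, between them for 7 and below both for 14. After quantile normalization these counts were 14, 3 and 21.

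A gene is called raised in a clone here when its signal was at least 1 log2 unit above the higher of MOCK and WT, a description of single arrays with no test. Of the 38 genes, 33 were raised in clone 2 only, 0 in both clones, 0 in clone 1 only and 5 in neither. Among all named genes, 5.83% were raised in clone 2 only, 1.33% in both and 2.19% in clone 1 only. After quantile normalization 30 were raised in clone 2 only, 0 in both and 0 in clone 1 only, against 3%, 0.713% and 1.59% of all named genes. All 30 were among the 33, and the genes lost were Parp9, Rtp4 and Trim21, which then stood 0.48, 0.98 and 0.77 log2 units above the higher control. The genes raised in neither clone as deposited were Ifit2, Adar, Bst2, Ifitm3 and Epsti1. The 38 genes were chosen with earlier results of these data known. The shares of all genes or probe sets, here and below, are therefore a description beside them and not an independent test.

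With a lower mark of 0.58 log2 units (1.5-fold), 4 genes were raised in both clones as deposited, against 5.21% of all named genes. They were Oasl1, Rsad2, Eif2ak2 and Xaf1, and for Oasl1 clone 1 and the controls were under background. After quantile normalization Oasl1, Rsad2 and Eif2ak2 remained, 3 genes against 2.54%, and Xaf1 in clone 1 then lay 0.08 log2 units above the higher control. Both clones lay above both controls, by any margin, for 17 genes as deposited, against 28.2% of all genes, and for 14 after quantile normalization, against 19.3%. Clone 1 was below both controls while clone 2 was above both for 13 genes, against 9.71%, 4 of them with clone 1 under background, and for 20 after quantile normalization, against 9.31%. The clones share their 2 controls, so these counts are not independent of each other.

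**Figure D2:**
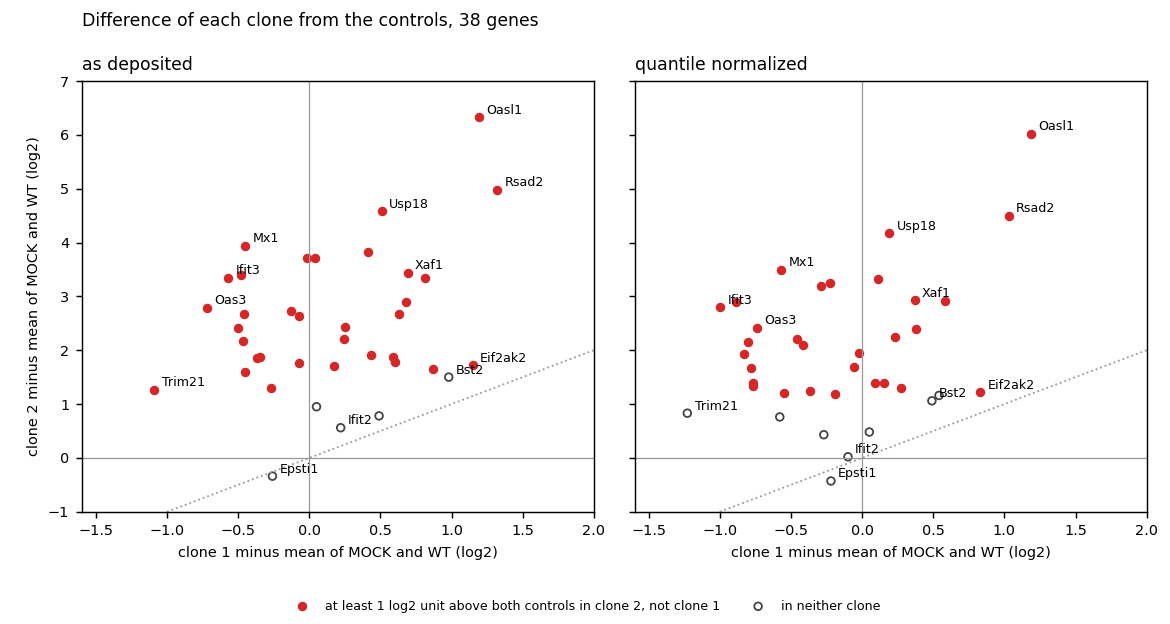
Difference of clone 2 (vertical axis) against that of clone 1 (horizontal axis) from the mean of MOCK and WT, in log2 units. The left panel is as deposited and the right quantile normalized. Each point is 1 of the 38 genes, from single arrays, and the dotted line marks equal differences. Genes under background on the controls (Oasl1, Mx1, Oas3 and Epsti1 among those labelled) are drawn at their measured values. Filled points, 33 on the left and 30 on the right, are raised in clone 2 only, and the differences of clone 1 spread around 0 from -1.09 to 1.32 as deposited.

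The design's own test sets both clones against both controls. In limma, 0 of the 38 genes passed an adjusted p of 0.05, against 0.0405% of all probe sets tested. At an unadjusted p under 0.05, 14 genes passed, all of them higher in the knockout group, against 7.54% of probe sets, and after quantile normalization 7 did, against 4.7%. The lowest adjusted p of the 38 in this test was 0.336 (Rsad2) as deposited and 0.462 (Eif2ak2) after quantile normalization. The difference between the clones enters this test as spread within the knockout group. The count was not 0 under every setting: 8 genes were called when only probe sets above the median signal were tested, against 1.77% of those probe sets. With a filter at the 25th percentile 1 gene (Rsad2) was called, against 0.751%, and with trend and robust moderation 3 (Oas1a, Oas2 and Xaf1), against 1.53%.

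When clone 2 alone was set against both controls in limma, with its array assumed to vary like the controls, 24 of the 38 genes were called higher, against 2.16% of all probe sets. After quantile normalization 24 were called, against 2.32%, and 23 genes were called on both scales. Sp100 was called only as deposited and Samd9l only after quantile normalization. When clone 1 alone was set against the controls, 0 genes were called higher or lower, 0.594% of all probe sets being called higher. At an unadjusted p under 0.05, 4 genes passed in the fit of clone 1, against 7.51% of all probe sets, and 34 in that of clone 2, against 12.4%. The difference between the clones themselves, with a median of 2.23 log2 units over the 38 genes and 2.09 after quantile normalization, rests on 1 array each and was not tested. Clone 2 was at least 1 log2 unit above clone 1 for 31 of the 38 genes on either scale.

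The transcription factors among the 38 genes are Stat2 and Irf9, partners in ISGF3, and Irf1, a factor that interferons induce and that itself activates many of these genes. All 3 were raised in clone 2 only, and all 3 were called in limma's fit of clone 2. Stat2 differed from the mean of the controls by 2.67 log2 units in clone 2 and by -0.46 in clone 1. Irf1 differed by 2.42 and -0.50, and Irf9 by 2.20 and 0.24. On the array, clone 1 lay below both controls for Stat2 and Irf1 on both scales, and Irf9 in clone 1 was level with MOCK within 0.12 log2 units.

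The IFIT proteins bind foreign or improperly capped RNA and block its translation. Ifit1 read 9.35 in MOCK and 9.29 in WT, with 9.36 in clone 1 and 13.03 in clone 2. The other arrays lay within 0.07 log2 units of each other, and clone 2 stood 13.1-fold above the mean of the controls. Ifit3, whose human counterpart binds and stabilises IFIT1, read 11.49 in MOCK and 12.51 in WT, with 11.44 in clone 1 and 15.35 in clone 2. WT was the higher control, clone 1 was level with MOCK, and clone 2 lay above every other array. Its close copy Ifit3b read 11.09, 11.92, 11.02 and 14.89 in the same order. The pattern was that of Ifit3, and since probes of such near-identical genes can share signal, the 2 genes are not separate evidence. Ifit2, by contrast, read 8.68 in MOCK and 8.66 in WT, with 8.89 in clone 1 and 9.22 in clone 2, a difference of 0.56 log2 units in clone 2 that became 0.02 after quantile normalization. Ifit2 thus stayed near the controls although it lies beside Ifit3 on the chromosome.

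The oligoadenylate synthetases (OAS) sense double-stranded RNA and make the messenger that switches on RNase L. The OAS-like proteins are related, and Oasl1 is known as an inhibitor of Irf7 translation. Oasl1 read 4.64 in MOCK and 4.12 in WT, with 5.57 in clone 1 and 10.71 in clone 2. Its signal was below the background level on the control arrays and on clone 1, so their order carries no information, and clone 2 stood at least 4.28 log2 units above the controls. Oas2 read 6.74, 6.17, 7.27 and 9.81 in the same order, with WT below background. Clone 1 was above both controls by 0.52 log2 units or more, and clone 2 was 2.55 above clone 1.

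Oas1a, a gene of the mouse Oas1 family, read 6.87 in MOCK and 7.11 in WT, with 7.67 in clone 1 and 9.89 in clone 2. Oas1a has near copies in the mouse genome whose signal may be shared. The remaining genes of the group were Oas3 and Oasl2. Oas3 was under background on the control arrays and clone 1, and in clone 2 it stood at least 1.71 log2 units above the controls. Oasl2, bright on every array at 11.96 or more, differed by 2.68 and 0.63. All 5 genes were raised in clone 2 only, and all 5 were called in the fit of clone 2.

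The Mx proteins are dynamin-like GTPases that trap viral nucleocapsids. Mx1 read 6.52 in MOCK and 5.72 in WT, with 5.68 in clone 1 and 10.06 in clone 2. Mx2 read 6.53, 6.27, 6.38 and 10.12 in the same order. The controls and clone 1 lay at or near background for both genes, with 3 arrays each under the 75th percentile of the negative controls, and clone 2 stood alone above it. Clone 2 was thus at least 3.63 log2 units above the controls for Mx1 and at least 3.69 for Mx2. Both genes were called in the fit of clone 2.

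Isg15 is a ubiquitin-like protein, Uba7 its activating enzyme, Herc6 the ligase that attaches it in mice, and Usp18 the protease that removes it and also damps signalling at the receptor. Usp18 read 10.10 in MOCK and 9.81 in WT, with 10.47 in clone 1 and 14.54 in clone 2. Clone 2 was 24.0-fold above the mean of the controls and clone 1 was 1.43-fold above it. In log2 units clone 1 was 0.51 above that mean as deposited and 0.19 after quantile normalization. Isg15 read 7.78 in MOCK and 6.58 in WT, with 7.43 in clone 1 and 9.61 in clone 2. Its controls were 1.21 log2 units apart, clone 1 lay between them and clone 2 was above both. Herc6 differed by 2.64 log2 units in clone 2 against -0.07 in clone 1. Uba7, under background except in clone 2, was at least 1.07 log2 units above the controls there. All 4 genes were raised in clone 2 only, and Usp18, Isg15 and Herc6 were called in the fit of clone 2.

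Parp9, Parp12 and Parp14 belong to the ADP-ribosyltransferase family, and Dtx3l is the ubiquitin ligase that works with Parp9. All 4 were raised in clone 2 only as deposited, with differences from 1.30 (Parp9) to 2.18 (Dtx3l) log2 units. That of Parp9 was 0.76 after quantile normalization. In clone 1 they ranged from -0.47 (Dtx3l) to 0.59 (Parp12). Dtx3l and Parp12 were called in the fit of clone 2, and Parp9 and Parp14 were not.

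The TRIM proteins here are ubiquitin ligases of antiviral defence. Trim25 modifies the RNA sensor RIG-I, Trim21 binds antibody-coated virus inside the cell, and Trim30a restrains Toll-like receptor signalling. Trim30a read 8.81 in MOCK and 8.16 in WT, with 8.89 in clone 1 and 12.31 in clone 2. Clone 1 was level with MOCK within 0.08 log2 units and clone 2 was 14.2-fold above the mean of the controls. Trim30a also belongs to a cluster of related genes whose probes may share signal. Trim25 differed by 1.91 log2 units in clone 2 against 0.43 in clone 1. Trim21 read 6.63 in MOCK and 6.29 in WT, with 5.37 in clone 1 and 7.73 in clone 2. Clone 1 was under background for Trim21, so clone 2 was at least 1.31 log2 units above it, and against the controls the difference of clone 2 was 1.27, or 0.83 after quantile normalization. Trim30a and Trim25 were called in the fit of clone 2.

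Eif2ak2 encodes PKR, a kinase that stops translation when it binds double-stranded RNA, and Adar edits such RNA and so limits its detection. Eif2ak2 differed from the mean of the controls by 1.72 log2 units in clone 2 against 1.15 in clone 1, or by 1.22 and 0.83 after quantile normalization. It was 1 of the 4 genes raised 1.5-fold in both clones, and its clones were 0.58 log2 units apart. In limma's test of both clones its adjusted p was 0.353 as deposited and 0.462 after quantile normalization. Adar read 10.55 in MOCK and 10.32 in WT, with 10.48 in clone 1 and 11.38 in clone 2. Clone 2 was the highest array by 0.83 log2 units or more, but this fell short of the 2-fold mark, and it exceeded the control mean by 0.95 log2 units as deposited and 0.43 after quantile normalization, and neither gene was called in the fit of clone 2.

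Rsad2 encodes viperin, a radical enzyme that makes a chain-terminating nucleotide, Cmpk2 is a nucleotide kinase that supplies its substrate, and Isg20 is an exonuclease. Rsad2 read 7.85 in MOCK and 7.06 in WT, with 8.77 in clone 1 and 12.43 in clone 2. The arrays did not overlap between the groups: clone 1 lay 0.93 log2 units above the higher control, and clone 2 lay 3.66 above clone 1. Against the mean of the controls this was 2.49-fold in clone 1 and 31.5-fold in clone 2. Cmpk2, which is the next protein-coding gene to Rsad2 in the RefSeq order, differed by 2.72 log2 units in clone 2 but by -0.13 in clone 1. Isg20 differed by 1.71 and 0.17. All 3 were raised in clone 2 only, and Rsad2 and Cmpk2 were called in the fit of clone 2.

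Of the membrane-associated genes, Bst2 encodes tetherin, which holds budding virus at the cell surface, Ifitm3 blocks fusion of virus with endosomes, and Rtp4 is a chaperone of membrane receptors. Bst2 read 15.04 in MOCK and 13.69 in WT, with 15.35 in clone 1 and 15.86 in clone 2. Its controls were 1.35 log2 units apart, the widest gap of the 38 as deposited, and clone 2 lay 0.83 above MOCK. Ifitm3 read 16.35 in MOCK and 15.10 in WT, with 16.22 in clone 1 and 16.51 in clone 2. As deposited WT alone was low for both, and MOCK, clone 1 and clone 2 were close together. The clone 2 difference of Ifitm3 was 0.78 log2 units, and 0.48 after quantile normalization. Rtp4 differed by 1.66 log2 units in clone 2 against 0.87 in clone 1. None of the 3 was called in the fit of clone 2, where their adjusted p in limma was 0.216 for Bst2, 0.637 for Ifitm3 and 0.107 for Rtp4.

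Of the remaining genes, Xaf1, which antagonises an inhibitor of apoptosis, read 9.76 in MOCK and 9.90 in WT, with 10.52 in clone 1 and 13.28 in clone 2. Clone 1 lay 0.62 log2 units above the higher control and clone 2 a further 2.75 above clone 1. Sp100, a component of nuclear bodies, differed by 1.86 log2 units in clone 2 against -0.37 in clone 1. Samd9l, a restriction factor of poxviruses, differed by 1.87 and -0.35, and Ifi35 by 1.79 and 0.60. These 4 were raised in clone 2 only, and Xaf1 and Sp100 were called in the fit of clone 2. Epsti1 read 4.47 in MOCK and 4.34 in WT, with 4.14 in clone 1 and 4.07 in clone 2. It was below the median of the negative controls on all 4 arrays, so it was not measured above background and its order of arrays carries no information.

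**Figure D3:**
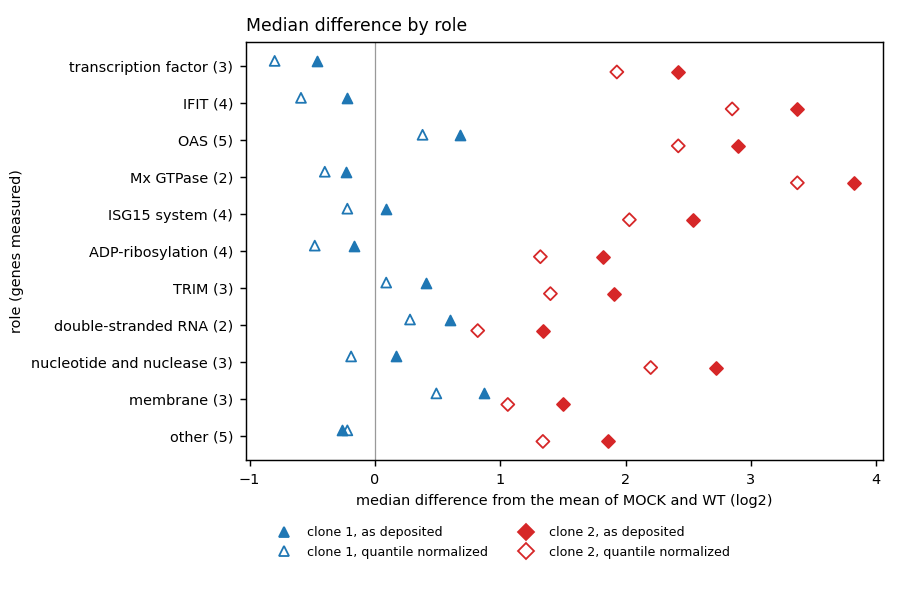
Median over the genes of each role (number of genes in brackets) of the difference from the mean of MOCK and WT, in log2 units; triangles are clone 1, diamonds clone 2, filled symbols as deposited and open symbols quantile normalized, each from 1 array and at measured values. Clone 2 medians lie between 0.82 and 3.82 and clone 1 medians between -0.80 and 0.87, and those of clone 1 for the ISG15 system and for nucleotide and nuclease genes lie on opposite sides of 0 on the 2 scales.

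The role groups differed in size in clone 2 and not in sign. As deposited, the median difference of clone 2 was 3.82 log2 units for the Mx proteins, or at least 3.66 with their controls set to background, and 3.37 for the IFIT proteins, and lowest for the double-stranded RNA genes at 1.34 and the membrane genes at 1.5. After quantile normalization these were 3.37, 2.85, 0.82 and 1.06. In clone 1 the membrane genes had the highest median, 0.87 as deposited and 0.49 after quantile normalization, and the transcription factors the lowest, -0.46 and -0.80. Groups hold 2 to 5 genes and were not tested against each other.

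The controls also differed for some of these genes. MOCK was above WT for 31 of the 38 genes as deposited, by a median of 0.43 log2 units, against a median of 0.27 over all named genes. After quantile normalization MOCK was above WT for 19 of the 38, with a median of 0.01, the same as over all named genes. As deposited Bst2, Ifitm3, Isg15 and Ifit3 had controls at least 1 log2 unit apart, and after quantile normalization Ifit3 and Ifit3b did, with WT higher by 1.74 log2 units for Ifit3. The widest gap between the controls, 1.35 as deposited and 1.74 after quantile normalization, was thus below the median difference of clone 2, 2.31 and 1.81, on either scale. It was larger than any difference of clone 1, in either direction, on both scales. It is, however, the gap of 1 gene on each scale, Bst2 and then Ifit3. Set against each gene's own control gap as deposited, clone 1 differed by more for some genes and by less for others. For Rsad2 its difference from the control mean was 1.32 against a gap of 0.79, and for Bst2 0.98 against 1.35.

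Several of the genes lie side by side in the RefSeq order of protein-coding genes, and neighbours did not always share a pattern. Oasl1 and Oasl2 are adjacent, and their clone 2 differences were at least 4.28 and 2.68 log2 units. Parp14, Dtx3l and Parp9 follow each other with 0 genes between, and all 3 were higher in clone 2 by 1.30 to 2.18. Oas2 and Oas3 are adjacent, and in clone 1 Oas2 was above background while Oas3 was not. In the Ifit cluster Ifit2 and Ifit3 are adjacent and differed by 0.56 and 3.34 in clone 2.

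The steps of the pathway upstream of these genes were described from lists chosen with earlier results of these data known. Type I and type III interferon genes were measured for 18 of 20 listed, and 1 of the 18, Ifna5, was above background on any array. Ifnb1 read 4.25 in MOCK and 4.65 in WT, with 4.51 in clone 1 and 5.17 in clone 2. All 4 values lie under the median of the negative controls. The median interferon gene differed from the controls by -0.11 log2 units (clone 1) and 0.06 (clone 2), and 0 of the 18 were raised. Ifna5 itself read 7.41 in MOCK and 7.84 in WT, with 7.43 in clone 1 and 7.68 in clone 2, so both clones lay between the controls. Ifng, the type II interferon, read 4.1 to 4.6 and was likewise not above background.

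Receptor chains and kinases were measured for 9 of 9 genes. Their median difference was 0.41 log2 units for clone 1 and 0.16 for clone 2, or 0.07 and -0.23 on the quantile scale, so the sign in clone 2 depends on the scaling. Ifnar1 read 8.94 in MOCK and 8.82 in WT, with 9.32 in clone 1 and 9.04 in clone 2, and Ifnar2 read 12.17, 11.63, 12.78 and 12.04. Neither receptor chain was raised in a clone. Ifngr2, a chain of the interferon gamma receptor, was raised in clone 2 as deposited, at 11.25 against 10.24 and 10.07 in the controls, but not after quantile normalization.

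A further 6 transcription factors of the pathway were measured. Their median difference was 1.30 log2 units in clone 2 against 0.45 in clone 1, or 0.93 and 0.17 after quantile normalization. Stat3, Irf2 and Irf3 were raised in clone 2 as deposited, by 1.43 to 1.54 over the mean of the controls, and none of the 3 was raised after quantile normalization. Irf7, the factor that amplifies the interferon alpha genes, read 3.22 in MOCK and 4.96 in WT, with 6.50 in clone 1 and 5.26 in clone 2. By the 1 log2 mark it was raised in clone 1 and not in clone 2 on both scales, unlike any of the 38 genes. Both controls and clone 2 were under background, however, and clone 1 was barely above its level there, 6.42. This order of arrays therefore rests on dim values. The 8 genes of negative feedback had medians of 0.21 and 0.24 log2 units for the clones 1 and 2, which became -0.13 and -0.27 after quantile normalization, and 0 of 8 were raised.

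A further list of 56 interferon-stimulated genes, none of them among the 38, was measured for 48. The median difference was 2.10 log2 units in clone 2 and 0.28 in clone 1, or 1.63 and -0.01 after quantile normalization. This list too was chosen with earlier results of these data known. In it 30 genes were raised in clone 2 only, 4 in both clones and 0 in clone 1 only. Among all named genes the shares were 5.83%, 1.33% and 2.19%. After quantile normalization the counts were 28, 3 and 0, against 3%, 0.713% and 1.59% of all named genes. Phf11d read 7.86 in MOCK and 9.73 in WT, with 8.01 in clone 1 and 13.14 in clone 2, and Sp140, a nuclear body protein, read 7.01, 7.94, 7.24 and 11.39. Ifih1 encodes the RNA sensor MDA5 and read 9.78, 8.90, 9.51 and 13.01 in the same order. In each of these clone 2 was the highest array and clone 1 lay between the controls. Among the 38 genes clone 1 lay between the controls for 7. Phf11d, Sp140 and Ifih1 were named for their large differences, so their height in clone 2 follows from that choice.

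The genes of this list raised in both clones were Tdrd7, Trim14, Ddx58 and Apol9a, and Apol9a was not among them after quantile normalization. Ddx58, which encodes RIG-I, read 11.61 in MOCK and 11.21 in WT, with 13.04 in clone 1 and 14.50 in clone 2. Tdrd7 read 6.37, 6.29, 8.23 and 8.62, and Trim14 read 5.85, 5.23, 7.88 and 7.37, so that for Trim14 clone 1 was above clone 2. Both controls of Trim14, and MOCK for Tdrd7, were under background. Trim14 in clone 2 lay less than 1 log2 unit above the background level of MOCK, 6.56, so its place among the raised genes rests on those dim control values. None of the 48 was called in limma's test of both clones, against 0.0405% of all probe sets. At an unadjusted p under 0.05 in that test, 17 passed, against 1708 of all 19505 named genes. Interferon-stimulated genes that were higher in both clones were therefore found on this array, but at the 2-fold mark they were not among the 38. Housekeeping genes were measured for 10 of 12, with medians of 0.28 and 0.21 log2 units, and 0 were raised in clone 2. Gusb was raised in clone 1 only as deposited, at 11.64 against 10.05 in both controls and 10.01 in clone 2.

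**Figure D4:**
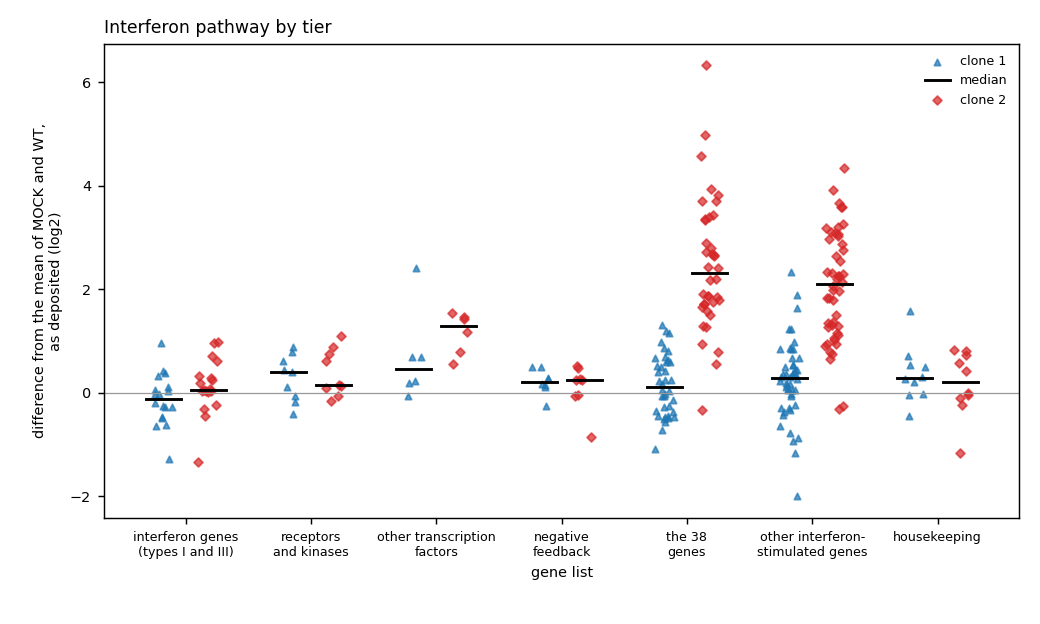
Difference from the mean of MOCK and WT, in log2 units as deposited, for genes of each step of the interferon pathway; each point is 1 gene in clone 1 (triangles) or clone 2 (diamonds) and bars are medians. In clone 2 the median is 2.31 for the 38 genes and 2.10 for the other interferon-stimulated genes, against 0.06 for interferon genes and 0.16 for receptors and kinases, the last becoming -0.23 after quantile normalization.

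Markers of other cell types were read beside these results, since in bulk RNA fewer cells of a type and less RNA per cell cannot be told apart. Above background on any array were 1 of 9 macrophage markers, 1 of 10 of T and NK cells, 0 of 3 of B cells, 0 of 5 of endothelial cells, 5 of 7 of fibroblasts and 3 of 7 of plasmacytoid dendritic cells. Ptprc, Adgre1 and Csf1r were below the median of the negative controls on all 4 arrays. The log2 summed signal of the macrophage markers was 8.50 to 8.56 in the controls and 8.21 to 8.24 in the clones. That of T and NK cells was 8.04 to 8.10 and 7.87 to 8.24.

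The sum for plasmacytoid dendritic cell markers was 14.52 to 15.82 in the controls and 15.69 to 16.28 in the clones, and Bst2, itself 1 of the 38, belongs to that list. Siglech, their defining marker, read 5.19 to 5.82 on all arrays, which is under background. Cox6a2 of that list was raised in both clones, at 10.60 and 10.71 against 8.38 in MOCK and 5.74 in WT. The sum for fibroblast markers was 13.82 to 14.21 in the controls and 12.64 to 13.12 in the clones. Single fibroblast markers differed from that sum. Dcn read 12.95 in MOCK and 13.61 in WT, with 8.94 in clone 1 and 11.18 in clone 2. Postn read 6.41 and 4.91 in the same controls, with 4.79 in clone 1 and 9.09 in clone 2, and was raised in clone 2 only on both scales, as most of the 38 genes were. Col1a1 was raised in clone 2 as deposited, at 5.99, which is under background, and Col1a2 in clone 1 only. The part of these markers in the result was not tested. The remaining sums were 5.13 to 5.34 in the controls and 5.25 to 5.58 in the clones for B cells, 6.64 to 6.67 and 5.89 to 6.18 for endothelial cells, and 7.87 to 7.91 and 7.82 to 7.85 for epithelium.

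Among genes that are not of the 38, the 5 whose profile over the 4 arrays lay nearest to the median profile were Slc35b4, H2-Q4, Zfp870, Helz2 and Trim47. The root mean square distance was 0.06 to 0.09 log2 units as deposited, with each gene centred on its own mean. Slc35b4, a nucleotide sugar transporter, read 10.79 in MOCK and 10.24 in WT, with 10.67 in clone 1 and 12.78 in clone 2. On the quantile-normalized scale Slc35b4 and H2-Q4 were again among the nearest 5. With 4 arrays, nearness of this kind is a description only.

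The response element core was counted over the classes of genes as well. It was found in 9.14% of the 908 genes with a window that were raised in clone 2 only, in 6.03% of the 199 raised in both, in 2.10% of the 334 raised in clone 1 only and in 3.62% of the 14250 raised in neither. The first of these counts includes 11 of the 26 genes described here that have a window and were raised in clone 2 only. In the 5 raised in neither, the core was found in Bst2 and Ifitm3.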

How the data were processed

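RNA of 4 samples, 1 array each, was measured on Clariom S mouse arrays. The deposited values are log2 signals made by the authors with the Transcriptome Analysis Console, per the submitters' processing notes. Neither its version nor the normalization or the array's genome build is given in the sources used here. Of 28846 features 6640 were controls, 5222 of them negative controls, and all 22206 others were tested, dim ones included. Symbols came from the platform annotation for 19572 probe sets and matched RefSeq (GRCm38.p6).

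Differences were tested with limma 3.58.1 (R 4.3.3), knockout minus control, with Benjamini-Hochberg adjustment over all probe sets and a threshold of 0.05. The script was tested on simulated data. Single clones were set against both controls by leaving the other clone out. The number of arrays, 2 in a group, limits the precision. Alternatives were quantile normalization, median centring, filters on dim probe sets, moderated variance with trend and robust, other marks for raised genes and leaving out each array.

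The members and lists were chosen with earlier results of these data known. By the naming rule, values on every array are given for the 12 genes with the largest and the 5 with the smallest clone 2 difference, for the 4 with the widest gap between controls and, from other lists, for up to 4 genes with the largest difference. Other genes are given by their differences, and markers are named to describe the samples. Promoter windows came from RefSeq, and 7 of the 38 genes had none.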

Additional observations from a re-analysis of the deposited data

Results flagged for a closer look

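For 13 genes, clone 1 was below both controls and clone 2 above both, so on these single arrays the clones lay on opposite sides of the same controls. For 9 of them clone 1 was above background, but in some of these it lay close to the lower control. It was within 0.02 log2 units of WT for Herc6, and 0.06 below MOCK for Ifit3 and Ifit3b. This difference was not tested, since each clone has 1 array. As deposited, clone 2 minus clone 1 in log2 units was 2.92 for Irf1 and 3.13 for Stat2, the transcription factors. It was 3.91 for Ifit3 and 3.87 for Ifit3b, which are close copies, and 3.51 for Oas3 and 4.38 for Mx1 as measured. It was 2.04 for Uba7, 2.71 for Herc6, 1.56 for Parp9, 2.65 for Dtx3l and 2.36 for Trim21. For Oas3, Mx1, Uba7 and Trim21, clone 1 was under background, its place below the controls carries no information, and the differences are at least 1.72, 3.64, 1.08 and 1.31. The measured difference was 2.86 for Cmpk2 and 2.23 for Sp100. Of all named genes 9.71% had this order of arrays. After quantile normalization 20 of the 38 genes did, against 9.31% of all.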

How the results depend on the processing

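The sign of the clone 2 difference was the same for all 38 genes under quantile normalization, median centring and either control alone. That of clone 1 turned for 6, 2, 3 (WT alone) and 4 (MOCK alone) of them. In limma's test of both clones, 0 genes were called as deposited. With a filter at the median signal 8 of the genes were called, with a filter at the 25th percentile 1 (Rsad2), and with trend and robust moderation 3. Leaving out 1 array gave 0 to 24 called genes, and the 24 came without clone 1. On quantile-normalized values, an alternative chosen after seeing the data, the test without clone 1 also called 24. Genes raised in both clones numbered 4 at 0.58 log2 units and 3 when measured from the mean of the controls. With 1 control alone they numbered 0 to 7, the 7 with WT alone. Genes raised in clone 2 only numbered 19 at 2 log2 units, and 29 to 33 with 1 control alone. Quantile normalization moved the median difference from 0.11 to -0.20 in clone 1, from 2.31 to 1.81 in clone 2 and from 0.43 to 0.01 for MOCK minus WT. With 1 control alone the median ranged from -0.07 to 0.20 in clone 1 and from 1.98 to 2.59 in clone 2. No paired analysis was possible because the controls carry no replicate numbers in the labels. Signals near the negative controls limit Oas3, Oasl1, Mx1, Mx2 and Uba7 on 3 arrays each, Oas2 (WT) and Trim21 (clone 1) on 1 and Epsti1 on all 4.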
